A study of Mus musculus with 12 samples.

Results

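Neurexins, neuroligins and neurexophilins are families of synaptic adhesion proteins and their ligands, and 8 of their genes were described here in the mouse amygdala, namely Nrxn2, Nrxn3, Nlgn1, Nlgn2, Nlgn3, Nxph1, Nxph3 and Nxph4. They were picked by symbol out of 47729 deposited genes, through the match of each Ensembl identifier to its gene name in GENCODE M21. All 8 passed the filter of at least 10 reads in total, as did 26963 genes in all. The choice was made with results for these mice already known, by anxiety group and by behavior measure, so the members' differences between groups and their relations with behavior are given below as a description.

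Neurexins sit in the presynaptic membrane and reach across the cleft to neuroligins in the postsynaptic membrane. Nlgn1 is best known from excitatory synapses, Nlgn2 from inhibitory synapses and Nlgn3 from both, while neurexophilins are secreted proteins that bind the extracellular part of alpha-neurexins. In the amygdala, as elsewhere in the forebrain, these contacts help to set the strength of excitatory and inhibitory transmission.

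The mice were nulliparous females of the inbred C57/BL6 strain, bought from a vendor at 7 weeks of age, and no treatment or engineered allele is named for any group. Each had been tested at 9 weeks of age in the elevated plus maze (EPM), at 10 weeks in a box with a lit and a dark side (LD) and at 11 weeks for social interaction (SIT) before both amygdalae were taken and sequenced as 1 library. The labels call 3 mice “less anxious” (mice 3, 7 and 12), 4 “anxious” (mice 1, 4, 8 and 11) and 4 “more anxious” (mice 2, 6, 9 and 10), and give mouse 5 no group. These states were assigned by the study from the second principal component of the amygdala transcriptomes themselves, so groups and gene levels do not come from separate measurements. Library totals ran from 31745630 to 45142355 estimated counts in the 11 grouped mice, with the largest totals in mice 2 and 9. Markers of the basolateral amygdala (Rspo2 and Lmo3) and central amygdala (Prkcd and Tac2) were read in every mouse, and the summed pituitary markers Prl, Gh and Pomc were highest in mouse 4, at 55.7 CPM (counts scaled to library size).

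The members of each family are related in sequence, which bears on whether reads can be assigned to one of them. Below is one 150-base stretch of coding sequence per gene, taken from the GENCODE M21 transcripts (GRCm38) where the alignment of the family was best conserved. Capitals mark bases that are the same in every member shown of that family, and lower case marks bases that differ. The pair of neurexins agreed at 126 of the 150 bases, and 21 of the 24 differing bases were at the third position of a codon. The Nrxn2 stretch lies on the plus strand at chr19:6472258-6472407, in exon 7 of 22, and the Nrxn3 stretch on the plus strand at chr12:89193046-89193195, in exon 5 of 20.
Nrxn2: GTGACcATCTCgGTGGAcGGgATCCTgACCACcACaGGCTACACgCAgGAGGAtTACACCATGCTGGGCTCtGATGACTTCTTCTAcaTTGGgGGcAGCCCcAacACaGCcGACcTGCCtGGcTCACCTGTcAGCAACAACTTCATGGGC
Nrxn3: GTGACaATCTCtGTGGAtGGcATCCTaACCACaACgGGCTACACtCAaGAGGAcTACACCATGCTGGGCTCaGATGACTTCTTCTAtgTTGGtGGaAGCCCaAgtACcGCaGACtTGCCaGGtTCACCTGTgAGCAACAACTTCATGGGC

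Neuroligins agreed at 107 of 150 bases in the stretch shown, which is in exon 7 of 8 in each of the genes, and 36 of the 43 differing bases were at the third position of a codon. Nlgn1 is read from the minus strand at chr3:25435855-25436004, Nlgn2 from the minus strand at chr11:69826746-69826895 and Nlgn3 from the plus strand at chrX:101318567-101318716. The GC content of the stretch was 44.0% in Nlgn1, 58.7% in Nlgn2 and 50% in Nlgn3.
Nlgn1: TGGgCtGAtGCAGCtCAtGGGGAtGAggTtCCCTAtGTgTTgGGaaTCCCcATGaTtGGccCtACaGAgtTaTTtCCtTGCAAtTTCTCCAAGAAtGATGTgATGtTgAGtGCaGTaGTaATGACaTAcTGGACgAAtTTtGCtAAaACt
Nlgn2: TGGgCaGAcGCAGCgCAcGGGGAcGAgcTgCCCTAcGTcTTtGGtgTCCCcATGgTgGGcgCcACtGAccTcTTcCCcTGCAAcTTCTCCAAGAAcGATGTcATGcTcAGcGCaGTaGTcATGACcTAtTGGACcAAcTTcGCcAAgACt
Nlgn3: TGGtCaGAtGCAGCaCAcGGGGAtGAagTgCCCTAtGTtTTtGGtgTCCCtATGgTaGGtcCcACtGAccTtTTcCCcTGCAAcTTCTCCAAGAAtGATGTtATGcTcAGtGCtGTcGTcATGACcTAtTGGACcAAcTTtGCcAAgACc

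Neurexophilins were the least alike, with 92 of 150 bases in common and 32 of 58 differing bases at the third position. The stretch is in the last exon of each gene, on the plus strand at chr6:9247682-9247831 for Nxph1 (exon 3 of 3), on the minus strand at chr11:95510843-95510992 for Nxph3 (exon 2 of 2) and on the minus strand at chr10:127526115-127526264 for Nxph4 (exon 2 of 2).
Nxph1: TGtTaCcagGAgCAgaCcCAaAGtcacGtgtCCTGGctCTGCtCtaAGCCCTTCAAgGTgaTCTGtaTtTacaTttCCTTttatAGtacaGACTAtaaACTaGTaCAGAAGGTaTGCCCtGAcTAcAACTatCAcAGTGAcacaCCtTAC
Nxph3: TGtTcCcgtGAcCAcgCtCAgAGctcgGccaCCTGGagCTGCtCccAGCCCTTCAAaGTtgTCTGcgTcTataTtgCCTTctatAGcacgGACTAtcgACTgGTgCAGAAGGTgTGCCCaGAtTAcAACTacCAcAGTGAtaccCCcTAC
Nxph4: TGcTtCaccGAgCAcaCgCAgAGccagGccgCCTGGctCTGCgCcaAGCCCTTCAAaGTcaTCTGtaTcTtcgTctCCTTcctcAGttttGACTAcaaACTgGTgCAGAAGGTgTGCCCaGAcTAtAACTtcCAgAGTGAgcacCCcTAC

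Over whole aligned coding sequences, identity ran from 55.0% between Nxph1 and Nxph4 to 67.7% between Nlgn1 and Nlgn3. No pair of the 8 genes had a run of 31 identical bases in common in any of their transcripts (0 shared runs). Some exons overlap another gene. Nrxn2 shares exon positions with Gm14964 and Slc22a12 on the other strand, and these held at most 1.20% and 0.234% as many estimated counts as Nrxn2 in a mouse. Such reads cannot be told apart unless the counting used strand, which is not given in the sources used here. For the other members with an overlapping gene (Nrxn3, Nlgn1 and Nlgn3) that share was at most 2.78%. The gene that overlaps Nlgn3, Gm21986, is on the same strand, so strand does not separate their reads, and its share was at most 2.03%.

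Per length, as RPKM, which is CPM divided by the exon length in kilobases, Nlgn2 had the highest level and Nxph3 the lowest. Nlgn2, the inhibitory-synapse neuroligin, was at 44.1 ± 5.26 RPKM (SD, n = 11 mice) and Nrxn2 at 27.6 ± 7.37. Nrxn3 followed at 18.5 ± 2.66, Nlgn3 at 13.4 ± 1.0 and Nxph1 at 8.29 ± 1.27. Nxph4 was at 5.42 ± 2.10, Nlgn1 at 5.14 ± 0.561 and Nxph3 at 4.19 ± 2.46 RPKM. Ranges of neighbours in this order overlapped throughout, except that every mouse had more Nlgn3 (lowest 12.1 RPKM) than any mouse had Nxph1 (highest 11.2 RPKM). The order of the neuroligins was the same in all 11 mice on this scale, since the Nlgn2 range began at 37.3, Nlgn3 lay between 12.1 and 15.3 and Nlgn1 ended at 6.24 RPKM. These levels use the union of annotated exons as the length, so a gene that mainly makes a short transcript is understated.

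**Figure D1:**
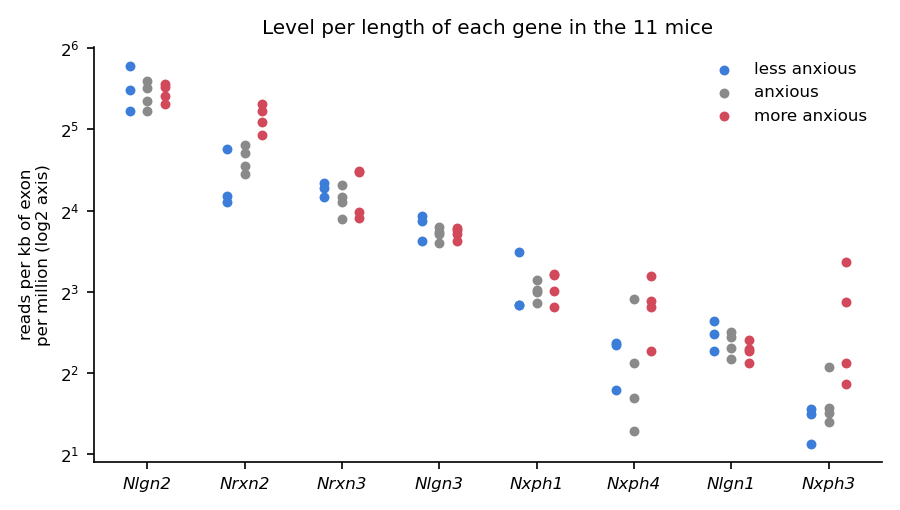
Level per length (RPKM, log2 axis) of each gene, with 1 point per mouse and color for the anxiety group; genes are ordered by their mean over 11 mice. Nlgn2 is highest at a mean of 44.1 RPKM, and the red points of Nrxn2 and Nxph3 sit above the blue ones.

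Among the neurexins, Nrxn2 was the gene with a gradation across the groups. It was measured at 238, 374 and 251 CPM in the less anxious mice 3, 7 and 12. The anxious mice 1, 4, 8 and 11 had 386, 324, 361 and 302 CPM. In the more anxious mice 2, 6, 9 and 10 it was at 469, 519, 547 and 421 CPM. Every more anxious mouse thus lay above every mouse of the other groups, while less anxious and anxious mice overlapped through mouse 7. Means were 287 ± 75.0 (SD, n = 3), 343 ± 37.5 (n = 4) and 489 ± 55.6 CPM (n = 4). In the fit over all genes the log2 fold change of more against less anxious mice was 0.74 (SE 0.14), or 1.67-fold, made up of 0.22 (SE 0.14) from less anxious to anxious and 0.52 (SE 0.13) from anxious to more anxious.

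Nrxn3, the other neurexin, had no such gradation. Less anxious mice 3, 7 and 12 were at 227, 245 and 256 CPM and anxious mice 1, 4, 8 and 11 at 252, 187, 226 and 217 CPM. The more anxious mice split, with 281 and 282 CPM in mice 6 and 10 and 200 and 189 CPM in mice 2 and 9. Only mouse 4 had less Nrxn3 than mice 2 and 9, and no other of the 11 grouped mice had more than mice 6 and 10, so the group spanned nearly their whole range. Its log2 fold change of more against less anxious mice was -0.05 (SE 0.15), and 0.22 without mice 2 and 9. The ratio of Nrxn2 to Nrxn3 per length was 1.08 ± 0.270 in less anxious, 1.43 ± 0.128 in anxious and 1.96 ± 0.555 in more anxious mice. The more and less anxious groups overlapped in this ratio, as mouse 10 (1.36) was below mouse 7 (1.39), and mouse 9 had the highest value, 2.64.

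**Figure D2:**
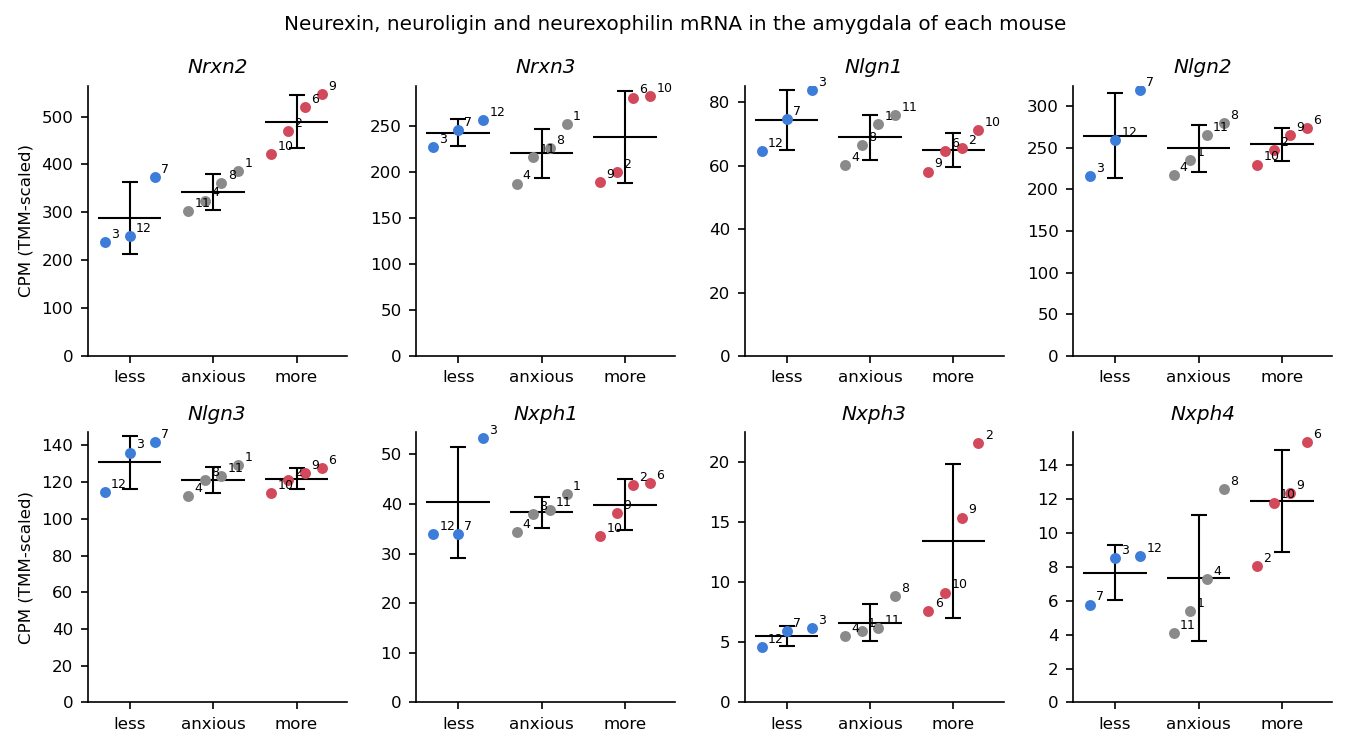
CPM of each gene in the 11 grouped mice, numbered, with black lines for the group mean and bars for 1 SD (n = 3, 4 and 4); every axis starts at 0. Only Nrxn2 and Nxph3 have all more anxious mice above all less anxious mice, with lowest more anxious values of 421 and 7.61 CPM against highest less anxious values of 374 and 6.14 CPM.

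Neuroligin levels differed little between the groups, and all 3 genes had overlapping values. Nlgn1 was at 83.8, 74.6 and 64.7 CPM in less anxious mice 3, 7 and 12, at 73.2, 60.3, 66.5 and 75.9 CPM in anxious mice 1, 4, 8 and 11, and at 65.7, 64.7, 58.2 and 71.1 CPM in more anxious mice 2, 6, 9 and 10. Mouse 3 was highest and mouse 9 lowest, and the log2 fold change of more against less anxious mice was -0.17 (SE 0.11). Nlgn2 ran from 216 to 319 CPM in less anxious, 217 to 279 in anxious and 230 to 273 CPM in more anxious mice. The less anxious group alone held both its lowest (mouse 3) and its highest value (mouse 7), with a log2 fold change of -0.09 (SE 0.12). Nlgn3 was the steadiest member, with a coefficient of variation of 7.49% over 11 mice, a range of 112 to 142 CPM and a log2 fold change of -0.11 (SE 0.10).

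Of the neurexophilins, Nxph3 was higher in the more anxious mice and Nxph1 was not. Nxph1 was at 53.2, 33.9 and 33.9 CPM in less anxious mice 3, 7 and 12, between 34.4 and 42.0 CPM in anxious mice and between 33.5 and 44.2 CPM in more anxious mice. Mouse 3 stood alone at the top, and the log2 fold change was 0.03 (SE 0.16).

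Nxph3, a neurexophilin known from deep cortical neurons, was at 6.14, 5.90 and 4.59 CPM in less anxious mice 3, 7 and 12. It was at 5.95, 5.52, 8.86 and 6.19 CPM in anxious mice 1, 4, 8 and 11. More anxious mice 2, 6, 9 and 10 had 21.6, 7.61, 15.3 and 9.12 CPM. All 4 were above the less anxious mice, but mouse 6 was below mouse 8 of the anxious group, and mice 2 and 9 were well above all others. These values rest on 176 to 962 estimated counts per mouse. The fit gave a log2 fold change of 1.27 (SE 0.34) of more against less anxious mice, or 2.41-fold, of which 0.25 (SE 0.35) fell between less anxious and anxious and 1.03 (SE 0.31) between anxious and more anxious mice. Without mice 2 and 9, an alternative chosen after seeing the data, it was 0.56, and that of Nrxn2 was 0.62.

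Nxph4, like Nxph3 low in CPM, was at 8.53, 5.77 and 8.65 CPM in less anxious mice 3, 7 and 12. It was at 5.40, 7.28, 12.6 and 4.08 CPM in anxious mice 1, 4, 8 and 11. More anxious mice 2, 6, 9 and 10 had 8.07, 15.3, 12.3 and 11.8 CPM. Here mouse 2, which had the most Nxph3, was below both less anxious mice 3 and 12, and mouse 6 was highest. The log2 fold change was 0.51 (SE 0.33), and 0.05 when mouse 7 was left out.

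Counted over the families, 2 of the 8 genes (Nrxn2 and Nxph3) had every more anxious mouse above every less anxious mouse, and 0 had the reverse. Of 15891 genes with a mean of at least 1 CPM, 5.27% had the former pattern and 4.75% the latter. The genes were chosen with this contrast known, so nothing is read from the difference. The log2 fold change was positive for 4 members and negative for 4, with a median of -0.01, which was also the median over those 15891 genes. Across the 11 mice Nrxn2 and Nxph3 levels had a Pearson r of 0.71 on the log2 scale and a Spearman rho of 0.67, 1 of 28 pairs of members computed. The r was 0.68 without the 2 mice farthest out in Nrxn2.

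**Figure D3:**
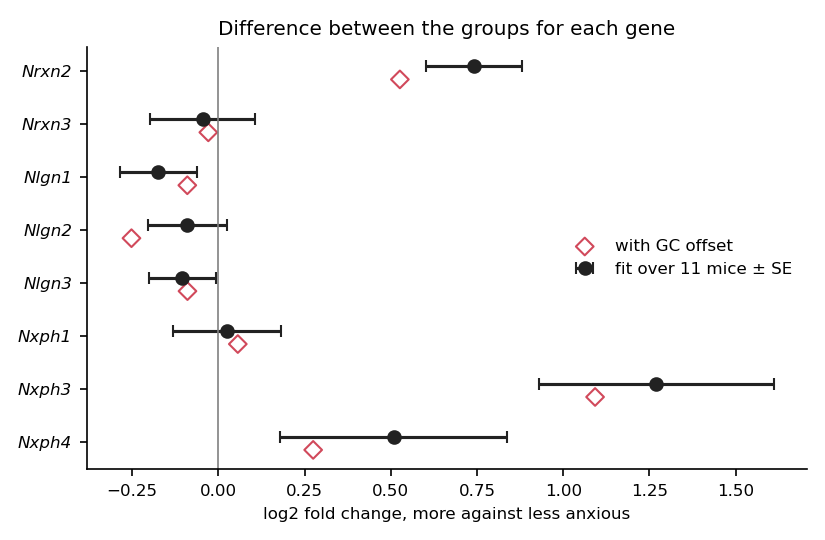
Log2 fold change of more against less anxious mice for each gene, as black points with bars of 1 SE from the fit over 11 mice, and as open diamonds after an offset for GC content in each library. Nrxn2 (0.74, and 0.53 with the offset) and Nxph3 (1.27 and 1.09) lie farthest from 0.

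GC content moved with these differences. Transcripts of Nrxn2 (61.4% GC), Nxph4 (61.4%), Nxph3 (60.2%) and Nlgn2 (59.96%) were between the 96.1 and 98.2 percentiles of genes with a mean of at least 1 CPM, whereas Nlgn1 was at 41.2%. For each library the GC trend was taken as the fitted log2 difference between genes of 60% and 45% GC. It was -0.29, 0.05 and -0.19 in less anxious mice 3, 7 and 12, and 0.09, 0.14, 0.24 and -0.003 in more anxious mice 2, 6, 9 and 10. Over 11 mice this trend had a Pearson r of 0.84 and a rho of 0.76 with Nrxn2, given with the other members' as a description. The r was 0.64 without mice 3 and 12, the farthest out. Nlgn1 had an r of -0.72 and a rho of -0.68, Nxph3 had 0.61 and 0.58, and the other 5 members had an r between -0.30 and 0.45. With an offset for GC in each library, the log2 fold change of more against less anxious mice was 0.53 for Nrxn2, 1.09 for Nxph3, 0.27 for Nxph4, -0.25 for Nlgn2 and -0.09 for Nlgn1.

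Markers of cell types moved as well, and in bulk tissue fewer cells of a type and less RNA per cell cannot be told apart. All 3 neuronal markers (Snap25, Syt1 and Rbfox3) were higher on average in more than in less anxious mice, with a median log2 difference of 0.30, and their summed level was 3036 to 3385 CPM in less and 3124 to 4029 CPM in more anxious mice. All 3 astrocyte markers were lower on average, with sums of 821 to 1019 CPM in less and 606 to 778 CPM in more anxious mice, and so were the 3 oligodendrocyte, 3 microglial and 3 endothelial markers. Neuron types went different ways. All 3 GABA neuron markers (Gad1, Gad2 and Slc32a1) were lower on average, with a median log2 difference of -0.18, as were both central amygdala markers (-0.41), while of the glutamatergic markers Slc17a7 was higher (0.44) and Slc17a6 lower (-0.09). Striatal-type markers summed to 123 to 418 CPM in less and 84.8 to 233 CPM in more anxious mice. Ccn2, a marker of cortical layer 6b picked after Nxph3 had been seen, was at 19.6, 8.87, 22.0 and 15.3 CPM in more anxious mice 2, 6, 9 and 10 and between 2.37 and 7.45 CPM in the other mice. Of the other layer 6b markers looked at, Cplx3 had a log2 difference of 0.54 between more and less anxious mice, and Moxd1 did not follow Ccn2 (0.06), with 27.2, 18.1, 18.5 and 14.6 CPM in more anxious mice 2, 6, 9 and 10 against 18.3 to 19.98 CPM in less anxious mice. Ccn2 and Nxph3 had an r of 0.70 and a rho of 0.49 over 11 mice, and an r of 0.21 without mice 2 and 9. The part of these markers and of library depth in the levels of Nrxn2 and Nxph3 was not tested.

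**Figure D4:**
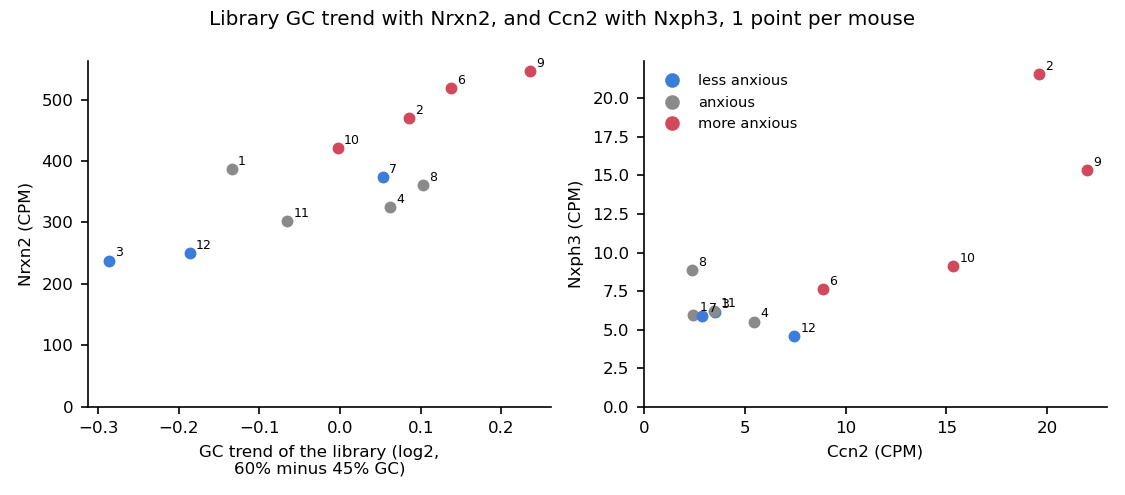
Left, Nrxn2 (CPM) against the GC trend of each library (log2 difference between genes of 60% and 45% GC); right, Nxph3 against Ccn2 (both CPM), with 1 numbered point per mouse. Nrxn2 is lowest in mice 3 and 12, which have the lowest GC trends (-0.29 and -0.19), and mice 2 and 9 are far out on both axes of the right panel.

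The genes whose log2 CPM followed each of these members most closely over the 11 mice are given as a description, out of 15890 genes compared. For Nrxn2 they were Tesk1 (r = 0.94), Bola3 (0.93), Rnf220 (0.93), 9430021M05Rik (0.93) and Jph3 (0.92). For Nxph3 they were Clasrp (r = 0.93), Cplx3 (0.92), Tmem145 (0.90), Lmtk3 (0.89) and Macrod1 (0.88). Of these 10 transcripts, Tesk1, Jph3, Clasrp, Lmtk3 and Macrod1 were above 60% GC.

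Each member was compared with 7 behavior measures by the slope of its log2 level on the measure in SD units. The members were chosen with these measures in view, so the counts of calls below are a description and nothing is read from them. None of the 56 relations passed an adjusted p of 0.05 in edgeR's quasi-likelihood test (0 calls, smallest adjusted p = 0.573), and 7 had an unadjusted p under 0.05. Of all genes, edgeR called 0% for open-arm time, for entries and for light distance and 0.00742% for light time. For the social ratios at 3, 5 and 10 min these shares were 0.0150%, 0.0111% and 0.0223%. DESeq2's likelihood ratio test called 1 relation, that of Nxph3 with distance in the light, where it called 0.0753% of all genes. It called 0.125% for open-arm time, 0.130% for entries and 0.0435% for light time. For the social ratios it called 0.470%, 0.125% and 0.322%.

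Nxph3 carried 4 of the 7 relations, all with a negative slope. Its slope was -0.50 (SE 0.15, n = 11) on open-arm time in the EPM (% of the time in open and closed arms) and -0.48 (SE 0.15) on total entries in the EPM. On the share of distance in the light of the LD it was -0.50 (SE 0.14), and on the share of time in the light -0.38 (SE 0.18). Without mouse 2 alone, edgeR's unadjusted p was 0.265 for entries and 0.087 for light time. It stayed under 0.05 for open-arm time and light distance. For light time it also rose above 0.05 without mouse 1, 3 or 9 alone and with mouse 5 included. Without mice 2 and 9 it was 0.219 for open-arm time, 0.937 for entries, 0.426 for light distance and 0.783 for light time. Of all genes tested, 5.84%, 6.97%, 5.80% and 3.55% had an unadjusted p under 0.05 for these measures. None of the members did for the boxzone ratio of the SIT at 3 or 5 min (0 of 8), where 7.65% and 6.56% of all genes did.

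The mice behind these slopes can be read from their values. Mouse 2, with the most Nxph3, had 2.33% open-arm time, made 6 entries and covered 16.6% of its distance in the light. Mouse 9 had 4.30%, 22 entries and 19.3%. Mouse 6, also more anxious by label but with Nxph3 at 7.61 CPM, had 29.2%, 36 entries and 41.9%, which were the highest open-arm and light-distance shares of the 11 mice. Pearson r of Nxph3 was -0.68 with open-arm time, -0.64 with entries, -0.72 with light distance and -0.53 with light time. Spearman rho was -0.65, -0.36, -0.58 and -0.64 in the same order. With the 2 mice farthest out in each measure left out r was -0.54, -0.53, -0.74 and -0.81, but without mice 2 and 9 it was -0.40, -0.04, -0.25 and -0.06.

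**Figure D5:**
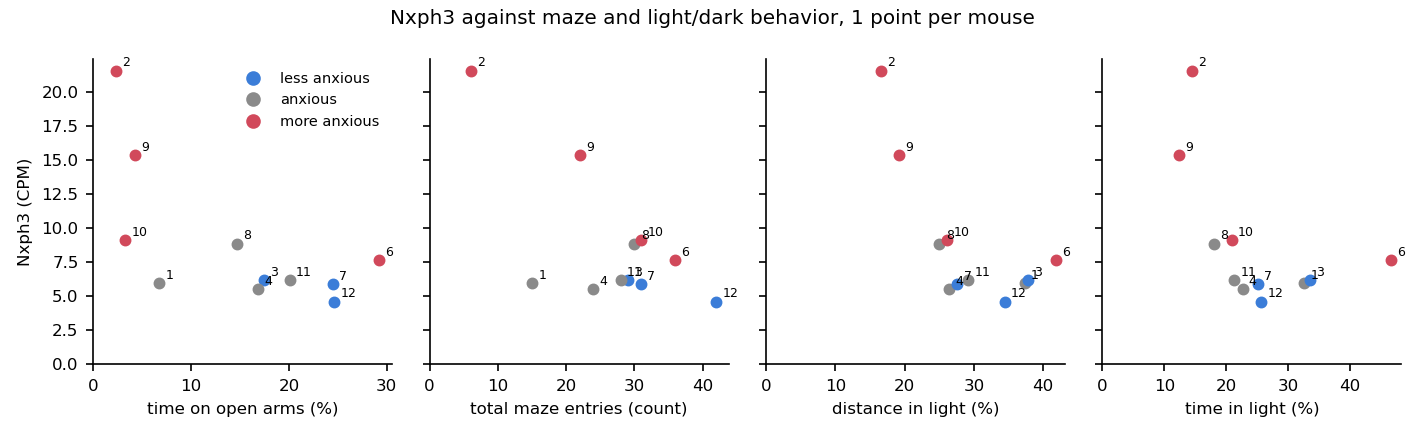
Nxph3 (CPM) against time on the open arms (%), total maze entries (count), distance in the light (%) and time in the light (%), with 1 numbered point per mouse and color for the anxiety group. Mice 2 and 9, at 21.6 and 15.3 CPM, lie at low values of each measure except entries, where mouse 9 made 22; the other 9 mice lie below 10 CPM.

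Nrxn3 had slopes of the opposite sign on the LD measures, 0.13 (SE 0.05) on distance and 0.13 (SE 0.05) on time in the light. Its r was 0.64 and 0.63, with rho of 0.54 and 0.55. The r was 0.45 and 0.59 without the 2 mice farthest out in each measure. With mouse 5 included the slopes of Nrxn3 were 0.07 and 0.08, and their unadjusted p was no longer under 0.05. The same held for that p when mouse 2, 6 or 9 alone was left out. Nlgn1 had a slope of 0.10 (SE 0.04) on the boxzone ratio of the SIT at 10 min, a measure for which 8.05% of all genes had an unadjusted p under 0.05. Its r was 0.64 and its rho 0.55, and r was 0.31 without mice 2 and 3, the farthest out. The slope was 0.04 without mouse 3 alone, 0.10 without mouse 2 alone and 0.05 with the GC offset, with which its unadjusted p no longer passed 0.05. Nrxn2, which was higher in every more anxious mouse than in any other grouped mouse, had no measure with an unadjusted p under 0.05. Its slopes on the 4 EPM and LD measures were between -0.13 and -0.03.

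The other genes of the pathway were 32 partners, read with edgeR's test of all 3 groups. None of them was called at an adjusted p of 0.05 by edgeR or DESeq2 (0 of 32 by each), with 0.00742% of 26963 genes and 0.571% of 34511 genes called. At an unadjusted p of 0.05, edgeR counted 4 partners as higher and 2 as lower in more anxious mice and DESeq2 counted 7 in all, against 6.35% of all genes by edgeR (3.95% higher and 2.41% lower) and 4.95% by DESeq2. The groups were cut from these same transcriptomes and the partner lists chosen with earlier results known, so nothing is read from these counts. More against less anxious mice, 18 partners had a positive and 14 a negative log2 fold change with a median of 0.02, where it was -0.01 for genes with a mean of at least 1 CPM.

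Neurexin ligands numbered 15, of which 1 passed the unadjusted threshold. This was Igsf21, a postsynaptic adhesion protein that binds the alpha form of Nrxn2, at 29.5 ± 3.13 CPM in less and 43.6 ± 8.17 CPM in more anxious mice (log2 fold change 0.57, SE 0.16, edgeR adjusted p = 0.532). Like Nrxn2 it had no overlap between those groups and a high GC content (62.3%), and its log2 fold change was 0.31 with the GC offset.

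Of the 6 neuroligin inhibitors and scaffolds, Mdga2 had an unadjusted p under 0.05. It encodes a protein that binds neuroligins and blocks their contact with neurexins, and was at 26.3 ± 5.13 CPM in less and 19.7 ± 4.98 CPM in more anxious mice (log2 fold change -0.52, SE 0.17, edgeR adjusted p = 0.632).

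Of the 6 presynaptic adaptors that hold the neurexin tail, 2 were counted as higher and 1 as lower. Cask was at 83.3 ± 10.4 CPM in less and 57.8 ± 11.6 CPM in more anxious mice without overlap (log2 fold change -0.50, SE 0.16, edgeR adjusted p = 0.692). Apba2, also without overlap, was at 129 ± 11.6 and 156 ± 6.66 CPM (0.25, SE 0.09, adjusted p = 0.730). Lin7b, which binds Cask, was at 33.3 ± 2.93 and 44.1 ± 9.35 CPM (0.43, SE 0.14, adjusted p = 0.732).

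Among the 3 splicing regulators of neurexins, Khdrbs3 was at 111 ± 20.02 CPM in less, 134 ± 6.95 in anxious and 128 ± 17.5 CPM in more anxious mice (log2 fold change 0.25, SE 0.12, edgeR adjusted p = 0.775). With the GC offset the p-values of Lin7b (0.0961) and Apba2 (0.0529) passed 0.05 upward and those of Igsf21, Mdga2, Cask and Khdrbs3 were between 0.0138 and 0.0335. Against the behavior measures edgeR called 0 of 32 partners, with 0% to 0.0223% of all genes called. Total entries had the most partners with an unadjusted p under 0.05, 1 with a rising and 7 with a falling slope, a measure for which 6.97% of all genes had one. Nothing is read from this count either, since the lists were chosen with earlier results known.

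Mouse 5, which belongs to no group, was removed by the study as an outlier in its principal component analysis. It was above the range of the other mice in Nrxn3 (284 CPM, highest other 282) and Nlgn3 (154 CPM, highest other 142). It lay within their range for the other 6 genes, with Nrxn2 at 297 CPM and Nxph3 at 5.63 CPM.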

How the data were processed

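Amygdala mRNA of 12 mice was sequenced on an Illumina NextSeq500, 1 stranded library and 1 separate mouse per sample, all in 1 run. The authors trimmed reads with cutadapt, aligned to mm10 with STAR for quality checks, and estimated transcript abundance with Salmon and tximport. They deposited estimated counts (expected counts), unnormalized and already whole, for 47729 genes. Tool versions and the annotation release are not given in the sources used here. Totals were 31745630 to 45142355 estimated counts. Salmon divides ambiguous reads, and the precision given is that between mice.

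Groups and behavior came from the labels. Fits were made in edgeR 4.0.16 and DESeq2 1.42.0 under R 4.3.3, correlations in scipy 1.17.1 (Python 3.11.15) and alignments in MAFFT 7.526. Genes whose counts summed to 10 or more over the 11 mice were fitted with edgeR's quasi-likelihood F-test (robust), TMM factors, the groups and a PC1 score as covariate, and Benjamini-Hochberg adjustment over all of them. The study's model also had a PC1 covariate, but the score here was computed anew from variance-stabilized counts and was not checked against the study's. The second component of the same computation did not fully order the mice by their labels. On it, mouse 6, more anxious by label, was at -0.28, below anxious mice 1 (4.40) and 11 (2.88). Slopes on 7 behavior measures were fitted without a covariate (10 mice for the 3 min ratio, which mouse 4 lacks). DESeq2's likelihood ratio test was run on every gene with a count in the mice used. Its shares of all genes are therefore of 34511 genes, or 34253 for the 3 min ratio. Correlations used log2 CPM (prior count 2) and are given without a test, since the members were chosen with results known. RPKM used exon lengths from GENCODE M21 (GRCm38), in which 47310 genes had an entry.

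The genes named were the 8 members, the partner genes with an unadjusted p under 0.05 in the group test, and the 5 genes most correlated with Nrxn2 and with Nxph3. The layer 6b markers were named after their values were seen, and other partners are counted without being named. The members and lists were chosen with earlier results of these data known. Alternatives changed the size factors, the count filter, the covariate, the test, a GC offset, ranks, the prior count, mouse 5 and each mouse in turn.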

Additional observations from a re-analysis of the deposited data

Results flagged for a closer look

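In the more anxious group the share of time on the open arms of mouse 6 stood far from the others, at 29.2% against 2.33% to 4.30%, a gap of 0.927 of the group's range where 0.829 is the critical value for 4 mice. This was 1 of 29 groups of values examined, and chance flags about 1 in 20. None of the 8 genes had such a mouse in the anxious or the more anxious group (0 gene levels). Mouse 6 had the lowest Nxph3 of the more anxious mice, 7.61 CPM.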

How the results depend on the processing

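Of the results recomputed, 338 values under alternatives kept their direction and their side of the threshold or moved by less than the spread between mice. The log2 fold change of Nxph3, more against less anxious, was 0.56 without mice 2 and 9 and 0.96 to 1.45 with single mice left out, and that of Nrxn2 was 0.62 to 0.96. The partners counted at an unadjusted p under 0.05 ranged from 1 (without mouse 12) to 9 (without mouse 2), and those called after adjustment from 0 to 0. The 56 relations with behavior gave 1 adjusted call in DESeq2's likelihood ratio test and 0 to 0 with single mice left out. Their unadjusted count was 4 with mouse 5 included and ranged from 5 (without mouse 3) to 12 (without mouse 6). The slope of Nxph3 on total entries reversed to 0.0095 without mice 2 and 9, and the cause was not tested. Leaving out mouse 2 alone gave slopes of -0.31 on open-arm time, -0.19 on entries, -0.30 on light distance and -0.23 on light time. Over all genes the group test made 2 adjusted calls in edgeR, 9 without a count filter, 0 with a mean of at least 1 CPM, 0 without the covariate and 197 in DESeq2, and 0 to 4 with single mice left out. No paired analysis was possible because each mouse belongs to 1 group and the labels give no shared replicate number. With 3 less anxious mice and 176 to 962 estimated counts of Nxph3 per mouse, the spread between mice rather than counting sets the precision.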
